A study of Rattus rattus with 18 samples.

Results

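The microRNA (miRNA) levels of the core region of the brain were compared between rats labelled remote limb postconditioning (PostC) and rats subjected to transient middle cerebral artery occlusion (tMCAO). The comparison rests on the 6 arrays whose titles name the core and either of these groups, 3 from PostC rats and 3 from tMCAO rats, out of 18 arrays in the series. All animals were Sprague Dawley rats, with 3 rats per group and 9 rats in all, and each rat gave 1 core and 1 peri array. The tMCAO model blocks the middle cerebral artery with a filament that is later withdrawn, so that blood returns. The third group consisted of sham-operated rats, whose 3 core arrays are given here as the control level. Remote limb postconditioning usually means short cycles of closing and opening a limb artery after a stroke, but the series description does not say whether tMCAO was performed in the PostC rats too, and the group is absent from the paper's text. The sample labels place all core arrays in the temporo-parietal cortex, whereas the paper's text calls the striatum the core. The age of the rats, and which time of sacrifice applies to the arrays, are not given in the sources used here, and the labels name the species Rattus rattus while Sprague Dawley is a strain of Rattus norvegicus.

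MiRNAs are short RNAs that lower the output of messenger RNAs whose sites pair with the seed, bases 2 to 8 of the miRNA. A hairpin precursor is cut into a 5p and a 3p strand, of which usually the guide strand is loaded into the silencing complex and the other, the passenger strand, is mostly degraded. In ischemic brain tissue the best known miRNA is that of the miR-210 hairpin, which low oxygen induces through the factor HIF-1, while miR-124, miR-128 and miR-9 mark neurons, and miR-451 and miR-486 mark red blood cells.

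Of 532 miRNAs tested, 12 differed between PostC and tMCAO core past the adjusted threshold of 0.05 in limma (Benjamini-Hochberg), which is 2.26% of those tested. Higher in PostC were 11 of them (2.07%), and 1 was lower (0.188%). The target sequences of these 12 are given first, since the main comparison turns on them. Each is written 5′ to 3′ as the array files give it, with the seed in capitals. No 2 of the 11 higher miRNAs share a seed, and none has a same-seed partner among the 761 miRNAs of the array.
miR-568: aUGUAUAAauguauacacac
miR-3591: aACACCAUugucacacucca
miR-320-5p: gCCUUCUCuucccgguucuucc
miR-210-5p: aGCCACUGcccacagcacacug
miR-196c-3p: aCAACAACaccaaaccaccuga
miR-182: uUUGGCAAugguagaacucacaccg
miR-3064-3p: uUUGCCACacugcaacaccuuaca
miR-191b: gAACGAAAuccaagugcagcu
miR-3574: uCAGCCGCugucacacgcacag
miR-93-3p: aCUGCUGAgcuagcacuucccga
miR-187-5p: aGGCUACAacacaggacc
miR-664-2-5p: cUGGCUGGggaaaaugauugg

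A miRNA counted as detected on an array when the median of its spots was above that of the empty spots by at least 3 of their scaled median absolute deviations. The tMCAO core arrays detected 447, 348 and 233 miRNAs in rats 1 to 3, the PostC core arrays 198, 240 and 605, and the sham core arrays between 336 and 509. Correlations across miRNAs between arrays of a group ranged from 0.831 to 0.926 in PostC core, from 0.932 to 0.958 in tMCAO core and from 0.890 to 0.985 in sham core. PostC rat 3 and sham rat 2 were taken as the arrays that stand apart, with the lowest median correlations with the other core arrays, 0.848 and 0.836. Close behind were tMCAO rat 2 at 0.873 and PostC rat 1 at 0.881. Every log2 level below is a normalized spot intensity, every fold change is the PostC mean minus the tMCAO mean on the log2 scale, and levels are compared only within a miRNA. The tissue is bulk, so that fewer cells of a type and less of a miRNA per cell cannot be told apart.

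Before adjustment, 71 miRNAs (13.3%) had a p under 0.05, 48 of them higher (9.02%) and 23 lower (4.32%) in PostC. In 99 miRNAs (18.6%) the 3 PostC values did not overlap the 3 tMCAO values, 64 times with PostC higher (12.0%) and 35 times with PostC lower (6.58%). The smallest two-sided p of an exact permutation test of 3 rats against 3 is 0.1, so that single miRNAs rest on the model. The median fold change over all 532 miRNAs was 0.01, and their interquartile range ran from -0.29 to 0.39. The number of calls depended on single arrays. Without tMCAO rat 1 or tMCAO rat 2 it was 3, without PostC rat 3 or sham rat 1 it was 4, without sham rat 3 it was 5, and without sham rat 2 it was 21. Without tMCAO rat 3 it was 11, of which 4 were higher and 7 lower. With both arrays that stand apart left out, 17 miRNAs passed, 15 higher and 2 lower, and all 12 were among them. The methods' t-test gave 56 miRNAs at an unadjusted p under 0.05, all 12 included, and none after adjustment. In the authors' normalized table the calls numbered 30, 27 as higher and 3 as lower, and with a floor of 50 units 14 passed as higher and 5 as lower.

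**Figure D1:**
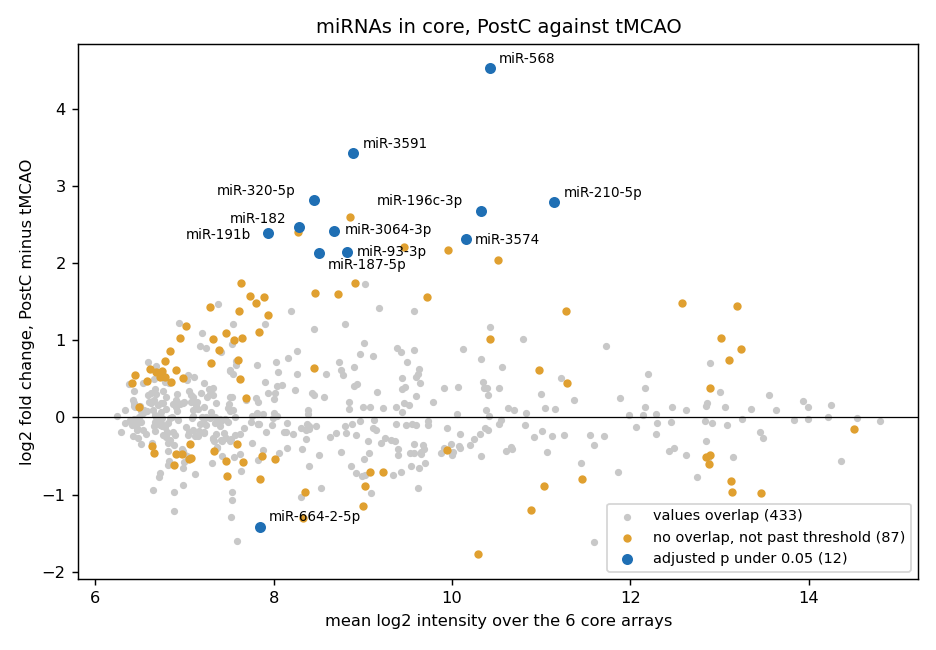
Log2 fold change of each of the 532 tested miRNAs in core, PostC minus tMCAO, against its mean log2 intensity over the 6 core arrays. Blue points are the 12 miRNAs past the adjusted threshold, of which miR-568 is highest at 4.53, and orange points are 87 others whose PostC and tMCAO values do not overlap.

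MiR-210-5p, the passenger strand of the hypoxia-induced hairpin, was among the 3 calls that did not depend on any single array. Its log2 level was 9.68, 9.87 and 9.71 in tMCAO rats 1 to 3, 13.14, 12.01 and 12.47 in PostC rats 1 to 3, and 11.45, 11.39 and 11.41 in the sham-operated rats. The tMCAO values lay within a narrow band below all the others, and every PostC value lay above every sham value. The rise over tMCAO was 2.79 ± 0.34 (SE, n = 3 rats per group), or 6.91-fold (limma with Benjamini-Hochberg, adjusted p = 0.00244). In the authors' normalized intensities, the level was 780 ± 97.9 units in tMCAO and 5707 ± 1204 units in PostC (SD, n = 3). All 6 arrays detected it. The guide strand of the same hairpin, miR-210-3p, had a fold change of 0.10 ± 0.62 (adjusted p = 0.971), with 7.78, 9.09 and 8.15 in tMCAO and 9.70, 7.91 and 7.70 in PostC. Its groups overlapped, and PostC rat 1 alone was above all tMCAO values.

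MiR-568 had the largest fold change of all miRNAs tested with the background correction used here, whereas by plain subtraction it gave 5.43 and miR-3591, miR-182, miR-320-5p and miR-3064-3p were further apart. It was measured at 8.69, 6.85 and 8.94 in tMCAO, at 13.27, 12.08 and 12.72 in PostC and at 11.59, 11.97 and 11.44 in sham core. The lowest PostC value was above every sham value, and the highest tMCAO value was below every sham value. The rise was 4.53 ± 0.56, or 23.1-fold (limma with Benjamini-Hochberg, adjusted p = 0.00244). In scanner units before any correction, the tMCAO arrays read 383, 90.3 and 448 and the PostC arrays 5511, 8276 and 14718. The array of tMCAO rat 2 did not detect it, and without that rat the fold change was still past the threshold.

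MiR-320-5p comes from a hairpin that is made without the enzyme Drosha, and its 3p strand is the usual guide. It read 7.29, 7.18 and 6.66 in tMCAO, 9.40, 10.15 and 10.05 in PostC and 8.67, 9.61 and 9.52 in sham core. Only 1 of the 3 tMCAO arrays detected it, against all PostC and all sham arrays, and the tMCAO values were below all others. The rise was 2.82 ± 0.42, or 7.07-fold (limma with Benjamini-Hochberg, adjusted p = 0.00844), and it ran from 2.63 to 5.94 over the alternatives, highest by plain subtraction. The 3p strand, miR-320-3p, gave -0.45 ± 0.50 (adjusted p = 0.780). With miR-210-5p and miR-568, miR-320-5p made up the 3 miRNAs that passed without any 1 of the 9 core arrays, in a fit of the PostC and tMCAO arrays alone, and with the rat number as a block.

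The other 8 higher miRNAs had estimated fold changes between 2.14 and 3.43, although for miR-191b only a bound holds, given below. None of the 8 passed without tMCAO rat 1 or without tMCAO rat 2. The size of the change in miRNAs near background depended on the background correction, and plain subtraction gave 7.23 for miR-3591, 6.12 for miR-182, 5.44 for miR-3064-3p, 5.40 for miR-187-5p and 3.70 for miR-93-3p. For miR-196c-3p and miR-3574, detected on all 6 arrays, the alternatives ran from 2.15 to 3.18 and from 1.96 to 2.72. MiR-3591 read 7.32, 7.03 and 7.18 in tMCAO and 10.90, 9.93 and 10.99 in PostC, with 1 tMCAO array above the detection limit (3.43 ± 0.57, limma with Benjamini-Hochberg, adjusted p = 0.0166). MiR-196c-3p, of a family encoded in the Hox gene clusters, was detected on all 6 arrays at 9.47, 9.36 and 8.12 in tMCAO and 12.36, 11.09 and 11.56 in PostC (2.68 ± 0.59, adjusted p = 0.0456). In both miRNAs the groups were well apart, and tMCAO rat 3 was lowest for miR-196c-3p. MiR-3574 was also detected on all 6 arrays, at 8.94, 9.22 and 8.83 in tMCAO and 11.83, 10.51 and 11.59 in PostC (2.32 ± 0.44, adjusted p = 0.0292). MiR-182, of the miR-183/96/182 cluster known from sensory organs, read 7.16, 7.24 and 6.73 in tMCAO and 9.83, 8.49 and 10.22 in PostC (2.47 ± 0.49, adjusted p = 0.0324), with 1 tMCAO array above the detection limit. PostC rat 2 was the lowest PostC animal for both. MiR-3064-3p read 7.97, 7.55 and 6.88 in tMCAO and 10.09, 9.49 and 10.09 in PostC (2.42 ± 0.53, adjusted p = 0.0456), again with 1 tMCAO array above the limit.

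MiR-93-3p is the passenger strand of a hairpin in the miR-106b-25 cluster. It read 7.54, 7.94 and 7.78 in tMCAO and 9.61, 10.33 and 9.76 in PostC (2.15 ± 0.39, limma with Benjamini-Hochberg, adjusted p = 0.0245). The guide strand, miR-93-5p, gave -0.66 ± 0.38 (adjusted p = 0.547). MiR-187-5p read 7.45, 7.49 and 7.38 in tMCAO and 9.33, 9.04 and 10.36 in PostC (2.14 ± 0.43, adjusted p = 0.0324), with 1 tMCAO array above the limit, and the other strand, miR-187-3p, gave -0.37 ± 0.38 (adjusted p = 0.751). For miR-3064 both estimates were above 0, with 1.02 ± 0.36 for the 5p strand (adjusted p = 0.239). Among 156 hairpins with both strands tested, 73 had estimates of opposite sign, the median gap between the strands' fold changes was 0.49, and 6 hairpins (3.85%) had a gap of 2 or more. MiR-210, miR-320, miR-93 and miR-187 were among these 6, a group chosen after the values were seen, and strands were not tested against each other.

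MiR-191b was not detected on any tMCAO core array, and 2 of the 3 PostC arrays detected it, so that its change has only a bound. The bound came to 3.51-fold higher in PostC. It sets the mean of all 3 PostC arrays against the lowest signal detected on each tMCAO array. The array of PostC rat 1 did not detect miR-191b, with 88.7 units against a limit of 179, so that the bound is not strict. The values themselves were 6.84, 7.01 and 6.40 in tMCAO and 8.25, 9.68 and 9.48 in PostC, with 8.88, 8.29 and 9.58 in sham core (adjusted p = 0.0327, limma with Benjamini-Hochberg). Of the 11 higher miRNAs, 3 were detected on all tMCAO core arrays, 2 on 2 arrays, 5 on 1 array and 1 on none, and 10 were detected on all PostC core arrays. The limit from the empty spots was as high as 566 units on the array of PostC rat 2 and 240 units on that of tMCAO rat 3. With the detection limit set by the dimmest 25% of miRNA spots instead, 9 of the 11 were detected on all tMCAO arrays. In uncorrected scanner units, all 3 PostC arrays were above all 3 tMCAO arrays for each of the 11, which were chosen on these same arrays. This was not counted over all miRNAs. The arrays also differed in brightness, with median miRNA spots of 60.6, 175 and 261 units in PostC rats 1 to 3. In tMCAO rats 1 to 3 these medians were 97.4, 98.4 and 80.3 units.

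The only miRNA that fell was miR-664-2-5p, which is processed from a small nucleolar RNA. It read 8.31, 8.72 and 8.63 in tMCAO, 7.04, 6.84 and 7.53 in PostC and 6.60, 6.39 and 6.74 in sham core. The tMCAO values were above all others, and the PostC values were above all sham values. It fell by 1.42 on the log2 scale, with an SE of 0.28 (limma with Benjamini-Hochberg, adjusted p = 0.0324), and the alternatives ran from -4.10 by plain subtraction to -1.27. All tMCAO arrays detected it, and 1 of 3 PostC arrays did. The call was lost, among other settings, by plain subtraction, without a filter on low values, in a fit of the PostC and tMCAO arrays alone, and without any 1 of the 3 tMCAO rats, PostC rats 1 and 2 or sham rats 1 and 3, and it was made in 15 of 27 alternatives. In uncorrected units the groups overlapped, since the bright array of PostC rat 3 read 315 and the tMCAO arrays 220, 328 and 279. The target of miR-664-1-5p has the same seed and differs from it by 1 base, so that each probe may bind some of the other miRNA. The fold change of miR-664-1-5p was -0.08. In uncorrected units it read 176, 128 and 149 in tMCAO, 68.8, 113 and 1518 in PostC and 443, 223 and 1189 in sham core.

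**Figure D2:**
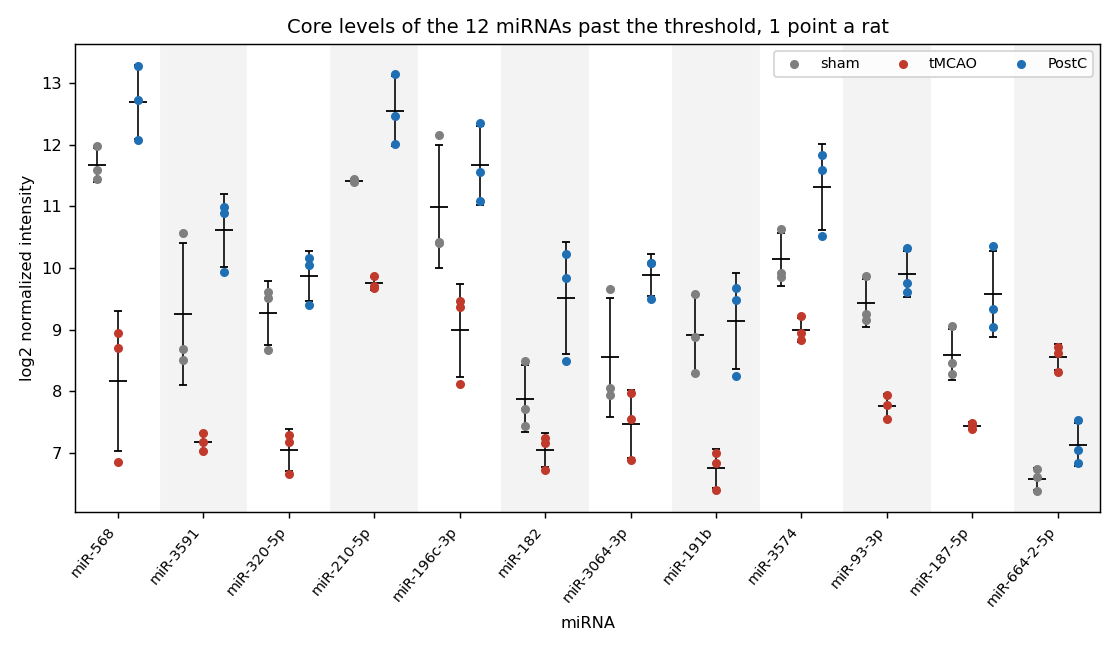
Normalized log2 intensity in core of the 12 miRNAs past the threshold, with 1 point per rat for sham (grey), tMCAO (red) and PostC (blue), and black bars for the mean ± SD of 3 rats. In each of the 11 miRNAs to the left the 3 PostC points lie above the 3 tMCAO points, and in miR-664-2-5p they lie below.

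Further lower estimates in PostC did not pass the adjusted threshold. They are the miRNAs of smallest unadjusted p among those whose groups do not overlap and that were detected on all arrays of a group. They include let-7c-5p and let-7b-5p. Let-7 miRNAs restrain growth genes and are abundant in mature neurons. Let-7c-5p read 13.93, 14.01 and 13.93 in tMCAO, 13.36, 12.92 and 12.66 in PostC and 12.95, 12.65 and 13.30 in sham core (-0.98 ± 0.24, limma with Benjamini-Hochberg, adjusted p = 0.0589). Let-7b-5p read 13.62, 13.77 and 13.46 in tMCAO, 12.96, 12.52 and 12.49 in PostC and 12.35, 12.41 and 12.82 in sham core (-0.97 ± 0.23, adjusted p = 0.0589). In both, the PostC values lay within or just above the range of the sham values. The target sequences of the pair differ by 1 base outside the seed, so that each probe may bind some of the other miRNA.
let-7b-5p: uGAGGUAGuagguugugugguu
let-7c-5p: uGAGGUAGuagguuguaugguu

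MiR-19b-3p, of the growth-promoting miR-17-92 cluster, read 8.97, 8.92 and 9.06 in tMCAO and 7.39, 8.09 and 7.55 in PostC (-1.31 ± 0.37, limma with Benjamini-Hochberg, adjusted p = 0.109). MiR-451-5p, a red blood cell miRNA, read 11.51, 11.11 and 11.86 in tMCAO, 10.09, 10.45 and 10.32 in PostC and 11.11, 12.00 and 11.41 in sham core (-1.20 ± 0.35, adjusted p = 0.127). The 3 PostC animals were thus the lowest of the 9 for miR-451-5p. The estimates of miR-3099, miR-382-5p and miR-3084a-3p were -0.97, -0.89 and -1.78, with adjusted p between 0.238 and 0.247. The probe of miR-3084a-3p is shared with miR-3084b-3p and miR-3084d.

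The 15 miRNAs that the study chose for its heat map were picked on tMCAO and sham arrays of this series, so that they are not independent of the tMCAO arrays used here. All 15 were tested, and 1 passed in PostC against tMCAO core, miR-210-5p, beside 2.26% of all miRNAs tested. Their fold changes had a lowest value of -0.98, of let-7c-5p, and a highest of 2.79, of miR-210-5p, with a median of 0.23 beside 0.01 over all miRNAs. MiR-218a-5p and miR-9a-3p, both neuron-enriched, gave 1.18 ± 0.75 and 0.71 ± 0.47. MiR-181b-5p gave 0.72 ± 0.77, miR-212-3p, which neuronal activity induces, 0.61 ± 0.34, and miR-27b-3p 0.56 ± 0.33. Of these, miR-212-3p had groups that touched without overlap, with 10.24, 10.76 and 11.00 in tMCAO and 11.00, 11.32 and 11.51 in PostC. MiR-30a-5p, miR-30e-5p and the endothelial miR-126a-3p lay between 0.14 and 0.25. MiR-191a-5p, miR-101a-3p, miR-16-5p and the lymphocyte miRNA miR-150-5p lay between -0.48 and -0.19. Adjusted p was 0.534 or more for these 12.

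The fit of tMCAO against sham core shares the tMCAO arrays with the comparison above, and that of PostC against sham core shares the PostC arrays, so that their values are given side by side and not as separate evidence. In tMCAO against sham core, 18 miRNAs passed (3.38%), and in PostC against sham core none did (0.00%), with 90 at an unadjusted p under 0.05 and a smallest adjusted p of 0.0568. Over the 11 miRNAs higher in PostC than in tMCAO, the tMCAO minus sham difference lay between -3.50 and -0.84, and the PostC minus sham difference between 0.22 and 1.64. For miR-568 the differences were -3.50 ± 0.56 (limma with Benjamini-Hochberg, adjusted p = 0.0222) and 1.03 ± 0.56 (adjusted p = 0.354). For miR-320-5p they were -2.22 ± 0.42 (adjusted p = 0.0292) and 0.60 ± 0.42 (adjusted p = 0.478). For miR-210-5p they were -1.66 ± 0.34 (adjusted p = 0.0318) and 1.13 ± 0.34 (adjusted p = 0.131).

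MiR-191b, miR-93-3p and miR-664-2-5p also passed in tMCAO against sham core, and let-7b-5p did so with the values given above. Among the remaining miRNAs of this fit none passed in PostC against tMCAO, and the PostC and tMCAO values overlapped in each. MiR-149-3p was 8.46, 10.44 and 8.57 in sham, 12.03, 12.81 and 12.62 in tMCAO and 12.90, 11.36 and 13.01 in PostC core, a PostC minus tMCAO difference of -0.06 ± 0.60 with a 95% interval from -1.41 to 1.28. MiR-762 was 8.34, 9.26 and 8.71 in sham, 11.08, 11.63 and 12.76 in tMCAO and 11.53, 10.85 and 12.36 in PostC core (-0.24 ± 0.53). MiR-6215 and miR-3473 gave -0.56 ± 0.55 and -0.77 ± 0.61, and PostC rat 2 was the lowest PostC animal for each of the 4. The estimates of these 4 turned above 0 without that rat. In the other direction, miR-29b-3p was 11.46, 13.88 and 12.47 in sham, 8.94, 7.79 and 9.43 in tMCAO and 7.29, 9.31 and 10.85 in PostC core (0.43 ± 0.90). MiR-30e-5p, miR-200b-5p and miR-132-5p, the last an activity-regulated neuronal strand, gave 0.23, -0.21 and 0.77. These intervals are wide, and a p that misses the threshold does not show that the groups are alike. MiR-155-5p and miR-150-5p, known from activated and resting lymphocytes, gave -0.52 ± 0.31 and -0.48 ± 0.31 in PostC against tMCAO.

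**Figure D3:**
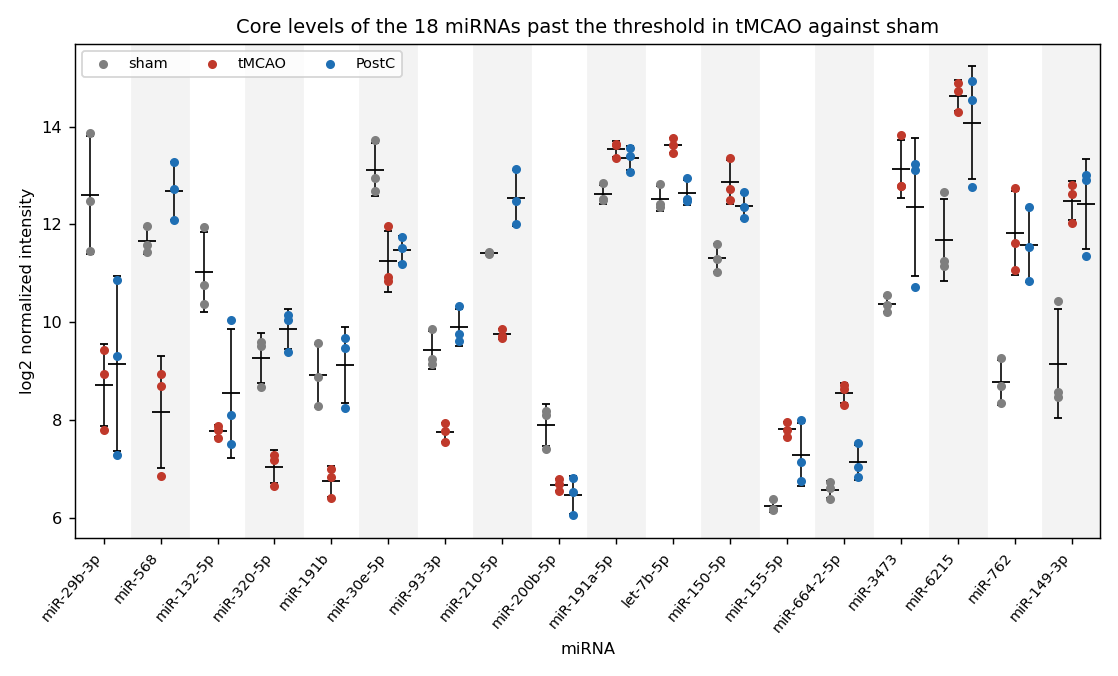
Normalized log2 intensity in core of the 18 miRNAs past the threshold in tMCAO against sham, ordered by that difference, with 1 point per rat and black bars for the mean ± SD of 3 rats. The blue PostC points of miR-568, miR-320-5p and miR-210-5p lie above the red tMCAO points, while those of miR-149-3p, miR-762 and miR-6215 overlap them.

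Lists of miRNAs by family, cluster and cell type were counted in the same fit. The let-7 family, 9 members that share a seed, had no member past the threshold and a median fold change of -0.61, with 8 of 9 estimates below 0, 3 at an unadjusted p under 0.05 and 4 whose groups did not overlap, each of these with PostC lower (over all miRNAs tested, 4.32% and 6.58%). Members whose targets differ by 1 base, such as let-7c-5p and let-7b-5p, may share signal, so that these counts may not be of separate measurements. The range was from -0.98 to 0.12, with let-7g-5p and let-7i-5p at 0.12 and -0.10. Of 5 tested let-7 passenger strands the median was 0.39. The miR-17-92 cluster and its paralogs (9 of 10 tested) had a median of -0.42. At an unadjusted p under 0.05 were 2 members, both with PostC lower (over all miRNAs tested, 4.32%). The miR-181 family (4) had a median of 0.64, the miR-29 family (3) 0.43, the miR-30 family (5) 0.21, the miR-15/16 family (6) -0.24, the miR-34 family (4 of 5) -0.27, and miR-26 and miR-101 (4) -0.21, with no member past the threshold. The miR-23/27/24 clusters (5) and the miR-10 family with its relatives miR-99, miR-100 and miR-125 (6 of 7) had medians of -0.02 and 0.01. Within the latter, miR-125a-5p read 12.82, 12.71 and 12.65 in tMCAO and 13.57, 13.30 and 13.54 in PostC (0.74 ± 0.19, limma with Benjamini-Hochberg, adjusted p = 0.0640). The imprinted Dlk1-Dio3 locus encodes a large miRNA cluster active in the brain. Its 37 members tested had a median of -0.16 and 23 estimates below 0, beside a median of 0.01 over all miRNAs. Its members miR-127-3p and miR-434-3p gave 0.34 and 0.19. The list of miRNAs made without Drosha (3) had a median of -0.45. It holds miR-320-3p but not miR-320-5p of the same hairpin, which passed at 2.82. The activity-regulated list (6) had a median of -0.02.

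The tissue label was checked against cell type markers. The neuron-enriched list (17) had a summed log2 level between 16.7 and 16.9 in PostC, between 16.5 and 16.7 in tMCAO and between 17.0 and 17.2 in sham core, a median fold change of 0.14 and no member past the threshold. MiR-124-3p, the most neuron-specific of them, was at 13.9 to 14.3 on all 6 arrays (0.14 ± 0.17). MiR-9a-5p read 13.12, 11.08 and 13.20 in tMCAO and 13.41, 13.67 and 14.67 in PostC, without overlap but not past the threshold (1.45 ± 0.54, limma with Benjamini-Hochberg, adjusted p = 0.279). The oligodendrocyte list (4 of 5) had a median of -0.08, with miR-219a-2-3p at -0.59.

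The summed log2 level of the red blood cell miRNAs, which rests on 2 probes, was between 10.5 and 10.7 in PostC, between 11.5 and 12.0 in tMCAO and between 11.2 and 12.0 in sham core. Both tested members had estimates below 0 that did not pass, miR-451-5p at -1.20 and miR-486 at -0.91 ± 0.52, while miR-144-3p and miR-144-5p were detected on no array. The leukocyte and microglia list (7 of 9) had summed levels between 14.0 and 14.8 in PostC, between 14.0 and 14.1 in tMCAO and between 12.5 and 13.3 in sham core. Its median was -0.39, with miR-223-3p, miR-146a-5p and miR-146b-5p at -0.46, -0.39 and -0.28. Of the 7 estimates 5 were below 0 and 2 above. MiR-142-3p, which all blood leukocytes carry, was detected on no PostC or tMCAO core array, and its other strand, miR-142-5p, gave 0.34. MiR-21-5p, also made by reactive glia and part of this sum, read 12.93, 11.80 and 12.76 in tMCAO and 14.39, 13.09 and 13.11 in PostC (1.04 ± 0.52, adjusted p = 0.472). Endothelial and smooth muscle miRNAs (5 of 6) had a median of 0.15, with miR-143-3p at -0.80 ± 0.33. Muscle miRNAs (5 of 7) had a median of 0.01, with miR-1-3p at 7.03, 7.04 and 6.78 in tMCAO and 7.73, 7.77 and 10.08 in PostC, where PostC rat 3 stood apart. Choroid plexus and epithelial miRNAs (4 of 9) had a median of -0.18, with miR-204-5p at 0.88 ± 0.71, and miR-200a-3p was detected on no array. The part of these cell types in the 12 calls was not tested.

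**Figure D4:**
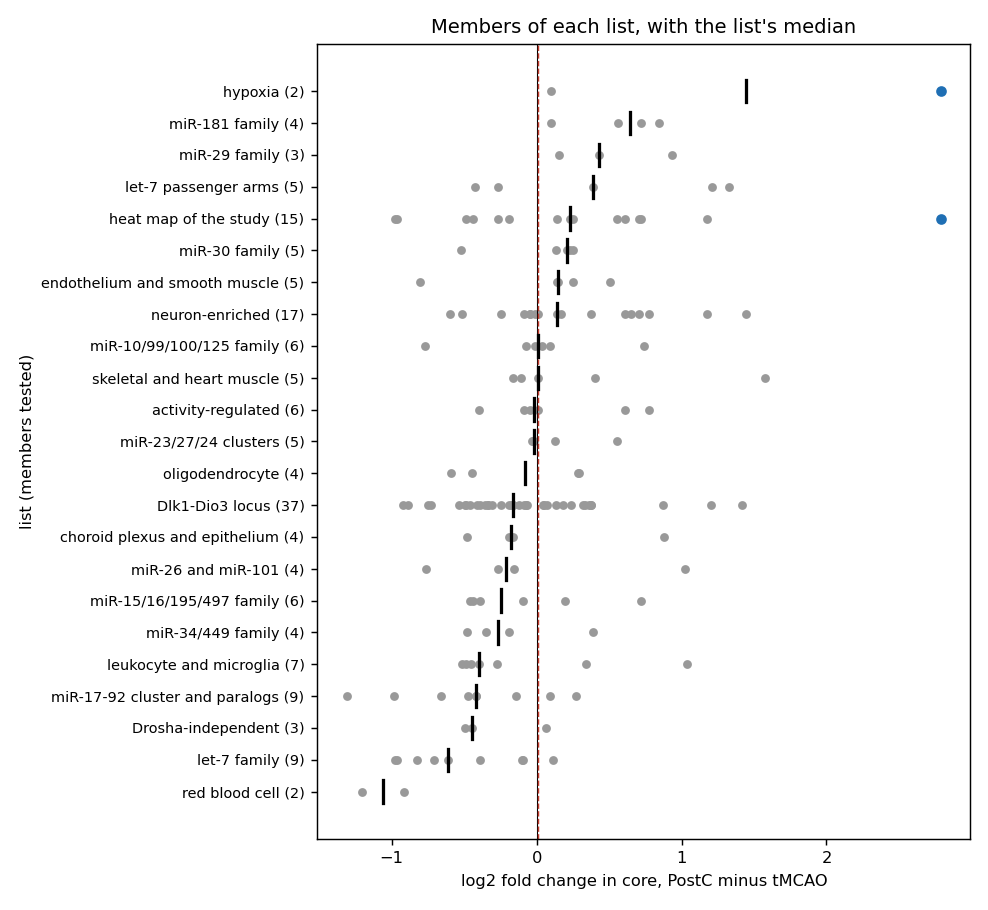
Log2 fold change in core, PostC minus tMCAO, of the tested members of 23 lists (1 point per miRNA), with a black tick for each list's median and a dashed red line for the median of all 532 miRNAs at 0.01. Blue points passed the threshold. The let-7 family (median -0.61) and the 2 red blood cell miRNAs (-1.06) lie furthest below 0, and the only miRNA in blue is miR-210-5p, which stands in both the hypoxia list and the heat map list.

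The change in core was set against the change in the peri arrays of the same rats. In peri, no miRNA passed in PostC against tMCAO (0.00%), with 31 at an unadjusted p under 0.05, and 42 miRNAs (7.89%) had groups that did not overlap. Without PostC rat 3, 59 miRNAs passed in peri. The core change minus the peri change passed for none (0.00%), with 30 at an unadjusted p under 0.05 and a smallest adjusted p of 0.456 (limma with Benjamini-Hochberg). The 11 miRNAs that rose in core had peri estimates between 0.29 and 2.33, each smaller than the core estimate, which the choice of these miRNAs by their core change favours. For miR-568 the peri change was 2.33 ± 0.75, for miR-320-5p 1.25 ± 0.59 and for miR-210-5p 0.90 ± 0.50. The difference between the regions was 1.89 ± 0.58 for miR-210-5p and 2.13 ± 0.60 for miR-3064-3p, both with an adjusted p of 0.456. Of the 12 miRNAs past the threshold in core, 7 had an unadjusted p under 0.05 for this difference, a count that the same choice favours. These rises are therefore not shown to differ between the regions. Among all miRNAs the smallest unadjusted p of this difference with a higher core change belonged to miR-466d and miR-297, at 1.65 ± 0.42 and 1.54 ± 0.40, and with a lower core change to miR-1839-5p and miR-1249, at -1.24 ± 0.30 and -1.29 ± 0.36.

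**Figure D5:**
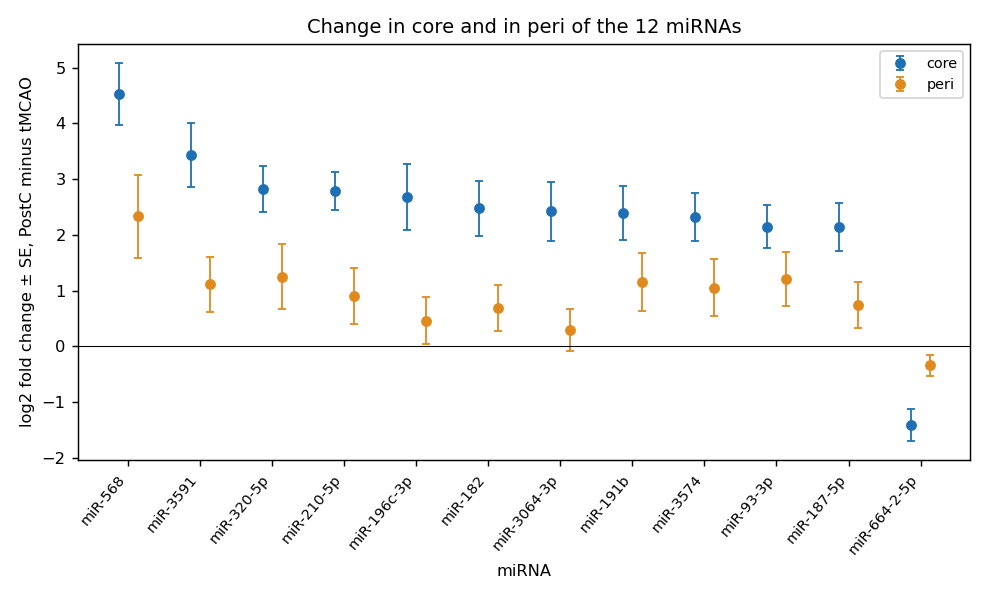
Log2 fold change ± SE, PostC minus tMCAO, in core (blue) and peri (orange) of the 12 miRNAs past the threshold in core. The peri estimates of the 11 rises lie between 0.29 and 2.33 and all lie below the core estimates, which run from 2.14 to 4.53 and by which the miRNAs were chosen.

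The sequences of the called miRNAs share letters that the test did not use. The patterns were chosen after the values were seen and carry no test. The letters ACAC or CACA, which overlap each other in a longer CA repeat, stand in the targets of 8 of the 11 higher miRNAs but not in that of miR-664-2-5p, against 88 of the 532 tested (16.5%). Of these 88 miRNAs, 27.3% had PostC values above all tMCAO values without overlap, against 9.01% of the others. Their median fold change was 0.21, that of the others -0.01. The 88 include the 8 called miRNAs from which the pattern was chosen, so that these contrasts are not separate from the calls. The repeat ACACAC stands in 8 tested miRNAs, of which 4 had PostC above tMCAO without overlap and none below, and the repeat UGUGUG in 9, of which 6 were above and 1 below, the last being let-7b-5p, beside 12.0% above and 6.58% below among all tested. The shorter letters UGUG or GUGU stand in 99 tested miRNAs, of which none passed, 16 were above without overlap and 9 below, with a median fold change of -0.01 against 0.03 for the others. The median GC content was 48% for the 11 higher miRNAs and 50% for all tested.

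A second feature of the sequences is that 3 of the 11 higher miRNAs are the reverse complement of another miRNA of the array. The target of miR-3574 pairs with miR-210-3p over all 22 bases, that of miR-3591 with miR-122-5p over all of its 20 bases, and that of miR-191b with miR-191a-3p over 20 of its 21 bases. The partners are shown here so that the pairing can be read against the sequences above.
miR-210-3p: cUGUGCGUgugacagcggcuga
miR-122-5p: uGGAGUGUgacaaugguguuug
miR-191a-3p: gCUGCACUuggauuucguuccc
Of these partners, miR-210-3p gave 0.10 as above, and miR-122-5p and miR-191a-3p were each detected on 1 PostC core array and on no tMCAO core array and were not tested. Of all 532 tested miRNAs, 68 (12.8%) pair in this way with another target of the array over at least 16 bases. Among these 68, 14 had PostC above tMCAO without overlap and 5 below, beside 12.0% and 6.58% of all miRNAs tested, and their median fold change was 0.12. Let-7b-5p and let-7c-5p belong to them, as their sequences pair with miR-3596a, which gave 1.11 and was named here after its value was seen.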

How the data were processed

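Total RNA was hybridized on single-colour (Cy5) arrays. The files deposited per array hold the median pixel intensity of every spot, with no background subtraction or normalization. A further table holds intensities on a linear scale that the authors had background-subtracted and normalized by locally weighted regression. All 18 columns of that table were closest to their own array.

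Background was corrected with normexp (offset 50) on all spots, cyclic loess was run on the log2 values of all 18 arrays, and the 4 spots of a miRNA were averaged, so that fold changes are relative to the other miRNAs. MiRNAs detected on at least 3 of 18 arrays were tested, 532 of 761. Array numbers limit the precision.

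The 9 core arrays were fitted with limma 3.58.1 in R 4.3.3 (lmFit, eBayes with a variance trend), with the rat as replicate and Benjamini-Hochberg adjustment at 0.05. The peri arrays were fitted alike, and the regions compared on each rat's core minus peri difference.

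Named miRNAs are the 8 largest rises and 8 falls past the threshold in PostC against tMCAO, falls filled up by smallest unadjusted p, those past it in tMCAO against sham, the 15 of the heat map, up to 4 bright members per list, and the 4 region differences of smallest unadjusted p, 2 in each direction. MiR-3574 and miR-187-5p passed but lie outside this rule, as do miR-223-3p, miR-3596a and the partner strands miR-93-5p, miR-187-3p and miR-3064-5p, and they were named after their values were seen. The members and lists were chosen with earlier results of these data known. No genomic positions are given, as no genome was used here. Figures were drawn with matplotlib 3.10.9.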

Additional observations from a re-analysis of the deposited data

How the results depend on the processing

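All 12 miRNAs past the threshold kept their direction, with an unadjusted p under 0.05, in each of the 28 alternatives in which they were tested, whereas the number of calls moved. PostC against tMCAO in core gave 12 in the main fit, between 3 and 21 when 1 rat was left out (3 to 17 higher, 0 to 7 lower), 30 in the deposited intensities (27 and 3), 4 with only the 2 groups (4 and 0), 30 with all 18 arrays and the rat as a random block (25 and 5), 0 with the methods' t-test (0 and 0), 21 with a background from the dimmest spots (20 and 1) and 19 in the deposited intensities with a floor of 50 (14 and 5). With no change in the total beyond 1.5 times, 0 were lower by plain subtraction or without a filter, 2 were lower without a variance trend or with both arrays that stand apart left out, and 7 were higher and 2 lower among the 168 miRNAs detected on all 6 arrays. The dimmest-spot background, the floor of 50 and the omission of both arrays were added after seeing the data. Non-overlapping miRNAs numbered 62 by plain subtraction, 29 when detected on all 6 arrays and between 99 and 176 with 1 rat left out.

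The labels do not say that rats of the same number in different groups belong together. The same-number deviations of PostC and tMCAO core correlated at -0.12, -0.29 and 0.26, and only rat 3 matched its own number best. With 3 rats per group these values cannot decide whether the numbers pair anything. With the replicate block, 3 miRNAs passed in PostC against tMCAO (3 higher, 0 lower) and 3 in tMCAO against sham.

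TMCAO against sham in core gave 18, and 7 by plain subtraction, 29 in the deposited intensities, 11 without a filter, 138 with array weights, 40 with only the 2 groups, 46 with the rat as a random block, 3 with the t-test, 5 with the floor of 50 and 0 to 27 with 1 rat left out. PostC against sham gave 0, and 2 by plain subtraction, 4 without background correction, 6 by quantile normalization, 3 by loess over core arrays alone, 5 when detected on all 6 arrays, 1 without a variance trend, 6 with array weights, 32 with the rat as a random block, 6 with the dimmest-spot background, 1 with the floor of 50, 2 without both arrays that stand apart and 0 to 8 with 1 rat left out. In peri, 77 passed with array weights, 68 without both arrays and 0 to 59 with 1 rat left out. The region difference gave 1 with the floor of 50. The array weights did not reach their tolerance. The causes were not tested.

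No fold change past the threshold changed its sign, but some small ones did. By plain subtraction miR-132-5p gave -0.11, miR-181b-5p -0.00482, miR-200b-5p 0.72 and miR-29b-3p -1.27. Quantile normalization gave 0.14 for miR-149-3p, 0.041 for miR-200b-5p and -0.10 for miR-30e-5p, and median scaling -0.11 for let-7g-5p, -0.17 for miR-124-3p, -0.027 for miR-126a-3p and 0.062 for miR-149-3p. MiR-149-3p was at 0.11 with loess over core arrays and at 0.16 without the GC trend, and let-7i-5p at 0.027 with array weights. The deposited intensities gave -0.011 for miR-124-3p, 0.87 for miR-200b-5p, -0.24 for miR-29b-3p and -0.024 for miR-30e-5p, with the floor of 50 -0.011 for miR-124-3p and -0.024 for miR-30e-5p, and they moved the median of all miRNAs to 0.11. With the dimmest-spot background miR-200b-5p was at 0.32 and miR-29b-3p at -0.38, and without both arrays that stand apart miR-181b-5p was at -0.11 and miR-29b-3p at -0.42. With 1 rat left out the ranges were -0.53 to 0.47 for miR-210-3p, -1.26 to 0.066 for miR-223-3p, -0.15 to 0.26 for let-7g-5p, -0.14 to 0.40 for miR-126a-3p, -0.36 to 0.47 for miR-149-3p, -0.42 to 1.36 for miR-29b-3p, -0.089 to 0.67 for miR-30a-5p, -0.20 to 0.056 for let-7i-5p, -0.80 to 0.25 for miR-101a-3p, -0.63 to 0.23 for miR-762, -1.21 to 0.046 for miR-3473, -0.98 to 0.10 for miR-6215 and -0.11 to 1.59 for miR-181b-5p.

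A block for slide or scan was not run, since the files used here name neither. MiRNAs near the level of the empty spots, among them 8 of the 11 higher ones on at least 1 tMCAO array, are limited by the signal over background.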
